A study of Mus musculus with 3 samples.

Results

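Fibronectin is the product of Fn1 (ENSMUSG00000026193), a gene on the minus strand of mouse chromosome 1 between positions 71585520 and 71653200 of the GRCm38 build. The members described here are all transcript-structure events that the deposited tables assign to that identifier and that lie on its minus strand inside it. There were 24, 25 and 24 such events in replicates 1, 2 and 3, out of 71716, 74243 and 74236 events in all, or 25 different events of 1 gene out of 13025 genes with a value. The 3 libraries are RNA sequencing of liver from mice labelled wild type, healthy, male and C57BL/6, an inbred strain, and they form the single group analysed here. They serve as normal liver in a study of driver genes in mouse hepatocellular carcinoma, a cancer arising from hepatocytes, whose tumours were not analysed here. Nothing in the labels ties a replicate to an animal of its own, and the spread between replicates may be partly technical.

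Fibronectin is a large secreted glycoprotein that binds integrins, collagen, fibrin and heparin, and works as a dimer held by disulfide bonds near its carboxyl end. Hepatocytes secrete a soluble plasma form, whereas fibroblasts, endothelial cells and other cells make cellular forms that are built into matrix fibrils. The forms come from 1 gene by alternative splicing at 3 places: extra domain B (EDB) and extra domain A (EDA), each a whole type III repeat encoded by a single exon that is included or skipped, and the variable region (V), where the choice of the 3′ splice site removes all or part of a segment. Plasma fibronectin is known to lack EDA and EDB, and inclusion of these exons is known from injured and fibrotic liver, embryos and tumours.

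Values are FPKM, which corrects fragment numbers for transcript length and sequencing depth, and each event carries the sum over the assembled transcripts that contain it. Events without a value are not listed. The values are not read counts, the depth behind each value is unknown, and no counting interval is given. An event that is not listed may be a failed estimate as well as an absent form. Hepatocyte markers were the highest of the marker lists: all 6 had a value and their summed level was between 35516 and 40754 FPKM, against 94.6 to 107 FPKM for the 8 stellate cell and fibroblast markers, of which Lrat was not listed. Adgre1, a Kupffer cell marker, had no value in replicate 1. The 5 markers of sinusoidal endothelium summed to between 46.9 and 56.5 FPKM, the 5 Kupffer cell markers to between 62.9 and 106 FPKM, the 3 cholangiocyte markers to between 1.99 and 3.49 FPKM, and the 3 megakaryocyte and platelet markers to between 1.83 and 2.79 FPKM. Sex-linked genes went against the label in all 3 libraries labelled male: Xist, which silences an X chromosome in female cells, was at 39.6, 34.2 and 38.2 FPKM in replicates 1, 2 and 3, and the Y-linked Ddx3y, Uty, Kdm5d and Eif2s3y had no listed event.

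The alternative parts of Fn1 are shown first because every result below turns on whether a transcript holds them. All are from the minus strand of GRCm38, read 5′ to 3′ from the GENCODE M21 transcripts. Capitals mark the first 15 bases of each. The EDA exon has 270 bases at chr1:71603660-71603929, the EDB exon 273 bases at chr1:71613763-71614035, and both keep the reading frame, as 90 and 91 codons. The V segment lies at the 5′ end of its exon in 2 pieces, 75 bases at chr1:71597673-71597747 and 285 bases at chr1:71597388-71597672, or 25 and 95 codons. The first piece holds the binding site for integrins with the Itga4 subunit.
EDB exon: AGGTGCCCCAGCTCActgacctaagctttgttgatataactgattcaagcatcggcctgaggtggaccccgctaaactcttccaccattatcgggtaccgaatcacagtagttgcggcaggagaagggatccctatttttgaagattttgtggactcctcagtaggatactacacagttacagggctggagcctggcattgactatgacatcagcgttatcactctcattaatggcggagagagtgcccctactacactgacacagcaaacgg
EDA exon: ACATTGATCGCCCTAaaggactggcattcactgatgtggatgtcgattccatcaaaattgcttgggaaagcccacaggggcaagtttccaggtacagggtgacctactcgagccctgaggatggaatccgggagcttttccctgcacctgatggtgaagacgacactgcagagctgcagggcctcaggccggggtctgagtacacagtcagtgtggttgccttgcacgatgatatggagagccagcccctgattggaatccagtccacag
V first piece: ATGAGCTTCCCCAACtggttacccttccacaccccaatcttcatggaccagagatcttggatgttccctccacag
V second piece: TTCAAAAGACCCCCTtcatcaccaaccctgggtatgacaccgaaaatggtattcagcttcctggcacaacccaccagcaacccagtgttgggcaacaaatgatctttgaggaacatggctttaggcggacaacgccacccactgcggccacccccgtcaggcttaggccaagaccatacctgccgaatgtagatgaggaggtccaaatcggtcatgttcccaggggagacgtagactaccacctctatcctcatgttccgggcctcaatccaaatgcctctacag

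The forms are told apart by the junctions they create, shown here with 15 bases on each side and capitals for the bases 3′ of the junction. A transcript with both V pieces is named V120, 1 with the second piece alone V95, and 1 with neither V0. In the last sequence the capitals are intron, beginning with the GT of the 5′ splice site that was not used.
EDB skipped: ataccgttgtcccagCTGTCCCTCCTCCCA
EDB included: ataccgttgtcccagAGGTGCCCCAGCTCA
EDA skipped: aaactgcagtgaccaCCATTCCTGCGCCCA
EDA included: aaactgcagtgaccaACATTGATCGCCCTA
V120: ggaggaagaagacagATGAGCTTCCCCAAC
V95: ggaggaagaagacagTTCAAAAGACCCCCT
V0: ggaggaagaagacagGACAGGAAGCTCTCT
V intron retained: ggaggaagaagacagGTAAAGACTCATAAC

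The annotation holds 17 Fn1 transcripts. Of these, 7 are full-length coding forms of 44 to 46 exons, and 10 are shorter. Of the 7, 4 include EDA and 1 includes EDB, while 3 are V120, 2 are V95 and 2 are V0. The longest, Fn1-201, includes everything and has 2477 annotated coding codons, and the shortest, Fn1-216, lacks EDA, EDB and V and has 2176. Among the short ones, Fn1-202 has 17 exons and 4022 bases. It begins between EDB and EDA, lacks EDA, and keeps the intron in front of the V segment, and no coding sequence is annotated for it.

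**Figure D1:**
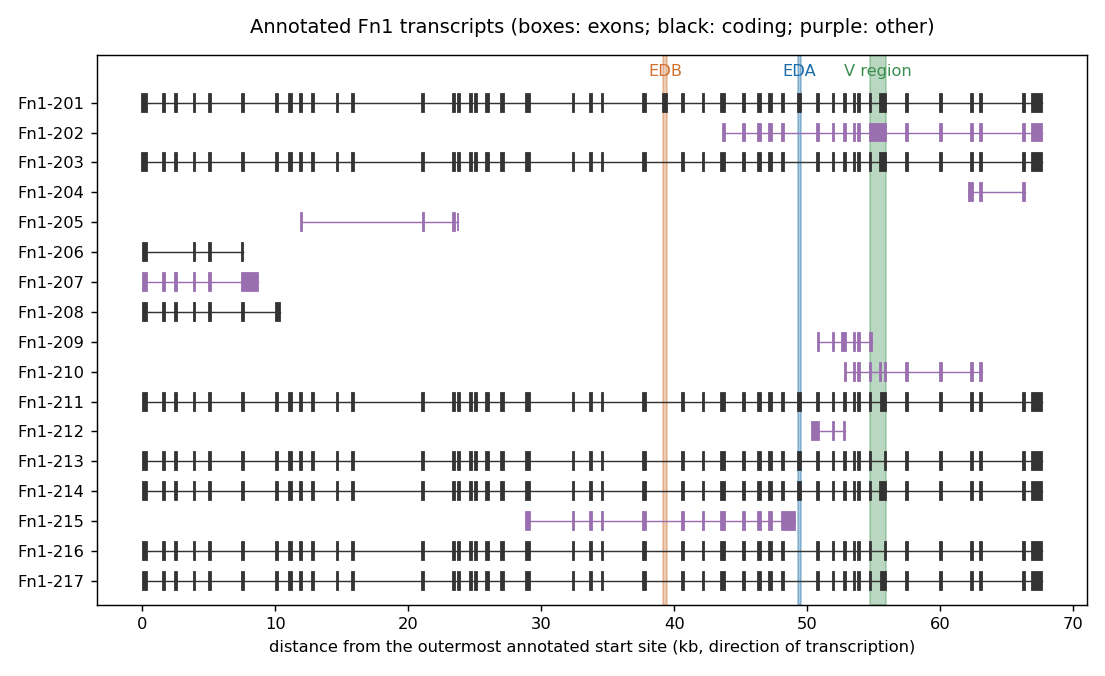
Exons (boxes) of the 17 annotated Fn1 transcripts along the gene, with the distance from the outermost annotated start site in kb in the direction of transcription. Shaded bands mark EDB, EDA and the V region; the 7 full-length coding transcripts cross all of them, and the first exon of Fn1-202 lies between EDB and EDA.

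Fn1 was among the more abundant transcripts of the liver. Its level, the largest of the summed first exons, the summed last exons and any internal event, was 157, 218 and 215 FPKM in replicates 1, 2 and 3, with a mean of 197 ± 34.0 FPKM (SD, n = 3). Replicate 1 was the lowest, and the highest library was 1.38 times the lowest. Fn1 ranked 221 of 13025 genes with a value, within the first 2.31% of the 9549 genes that averaged 1 FPKM or more, and 286, 189 and 197 in the single libraries. Its coefficient of variation of 17.3% was typical: 5008 of those 9549 genes varied as much or more. In tissue RNA, fewer cells of a type and less RNA per cell cannot be told apart, and this holds for every level given here.

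Nearly all of the value listed at the EDA exon was for its skipped form. Transcripts joining the exons on either side of it had 157, 199 and 213 FPKM in replicates 1, 2 and 3. Inclusion was listed in replicate 2 alone, at 0.00435 FPKM, which is 0.00219% of both forms together. In replicates 1 and 3 no inclusion event was listed. All 3 libraries therefore lay at the skipping end, and the level of skipping was lowest in replicate 1, as the gene level was. The skipped and included values together equalled the main last exon, described below, which makes up most of the gene level. The shared order is therefore not a separate observation.

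The EDB exon was likewise listed in its skipped form. Skipping had 41.8, 108 and 120 FPKM in replicates 1, 2 and 3, and no inclusion event was listed in any library. The skipping values of EDB were lower than those of EDA in every library, most of all in replicate 1. The EDB value equalled the 3 spliced V forms plus the short transcript Fn1-215, and the EDA value also held the retained form, both described below. Many other cassette exons were listed in the skipped form alone. Over all genes, 6976 cassette exons had at least 1 FPKM for both forms together in each library. Of these, 1656, or 23.7%, EDB included, had no inclusion event listed in any library. Of the 3210 that keep the reading frame the number was 766, or 23.9%. The median inclusion over the 6976 exons was 82.4%. Of the 6976, 1659, EDA and EDB included, had a mean inclusion no higher than the 0.000729% of EDA.

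**Figure D2:**
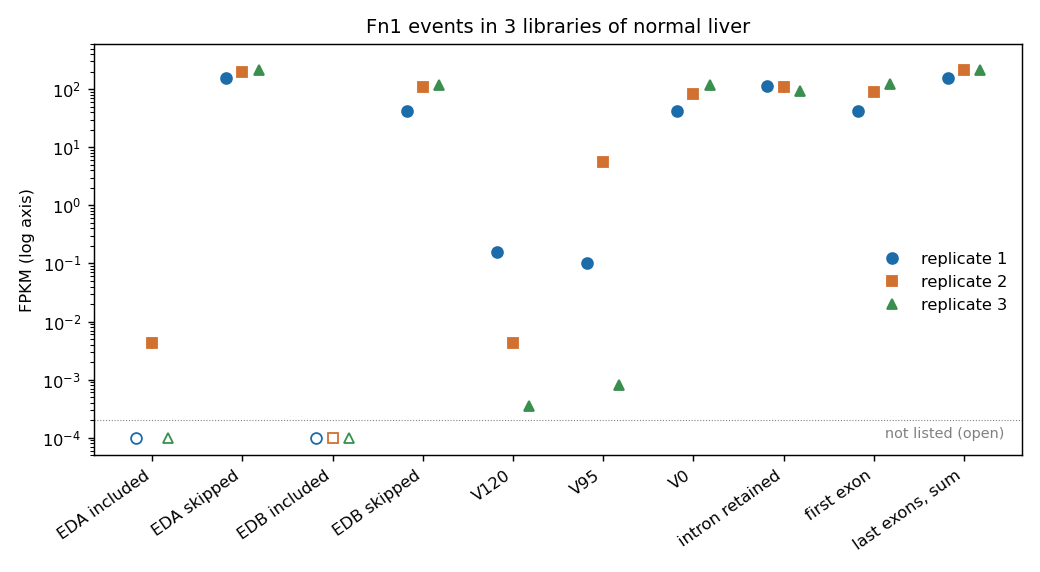
FPKM on a log axis of the main Fn1 events in replicates 1 (circles), 2 (squares) and 3 (triangles), with open symbols at the bottom for events that were not listed. EDA and EDB skipping, V0, the retained intron and both ends lie between 41.5 and 218 FPKM, and the included forms of EDA and EDB lie at 0.00435 FPKM or are not listed.

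The V region was listed in 4 forms, 3 of them spliced, and the levels of the spliced forms differed widely between libraries. V0, which joins the flanking exons with no V sequence, was at 41.5, 83.7 and 120 FPKM in replicates 1, 2 and 3, the highest library 2.89 times the lowest. V95 was at 0.103, 5.65 and 0.000796 FPKM, so nearly all of it came from replicate 2. V120, the form with the whole segment, was at 0.159, 0.00431 and 0.000349 FPKM. Among these 3 spliced forms V0 made up 99.4, 93.7 and 99.999%, and V95 reached 6.33% in replicate 2, against 0.246% and 0.000663% in replicates 1 and 3. Of all 4 forms, V95 averaged 0.971% over the 3 libraries and 0.0328% without replicate 2, and V120 averaged 0.0345% over the 3 and 0.00117% without replicate 1.

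The fourth form kept the whole intron in front of the V segment. This exon of 1183 bases, from 71597281 to 71598463, was at 115, 109 and 93.2 FPKM in replicates 1, 2 and 3 and varied little, with a coefficient of variation of 10.8% against 48.1% for V0. Retention and V0 ran in opposite order over the libraries: retention was highest and V0 lowest in replicate 1, and the reverse in replicate 3. Retention made up 73.4, 55.03 and 43.7% of the 4 forms, with a mean of 57.4 ± 15.01%, and V0 made up 26.4, 42.1 and 56.3%, with a mean of 41.6 ± 14.96% (SD, n = 3). The ratio of retention to V0 was 2.78 in replicate 1, 1.31 in replicate 2 and 0.776 in replicate 3, so the more abundant form was not the same in all libraries. With 1 library each, this difference has no replicate check. Whether the libraries were made from poly(A) RNA or after removal of ribosomal RNA is left unsaid in the labels, and its part in the level of retention was not tested.

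**Figure D3:**
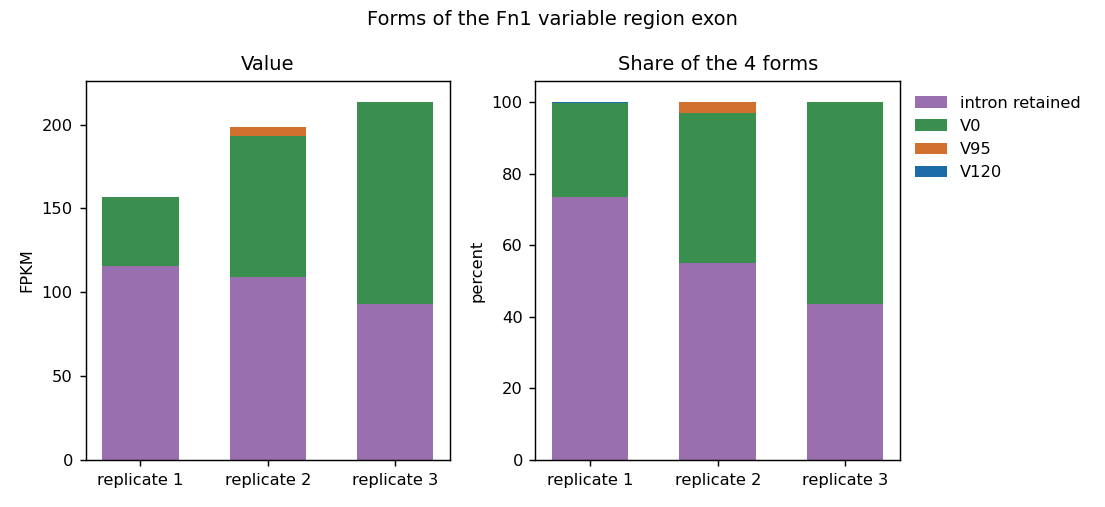
Stacked bars of the 4 forms of the V region exon in each library, in FPKM on the left and as a percentage of the 4 forms on the right. The retained form (purple) fills 73.4, 55.03 and 43.7% in replicates 1, 2 and 3 and V0 (green) nearly all of the rest, with V95 visible in replicate 2 and V120 at 0.101% or less.

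The retained exon also contains the complete V segment behind its intron of 626 bases, so that retained and V120 transcripts share the V sequence itself. The tables value whole transcripts and give no separate level for the V segment. How much of the V sequence in these livers belonged to spliced messages was therefore not measured. Read in the frame of the coding forms, the retained intron reaches a stop codon that ends at its base 14, inside the intron bases printed above. Weighted by the annotated lengths of 4022 bases for Fn1-202 and 7410 bases for Fn1-216, the retained form held 60.2, 41.5 and 29.6% of the length-weighted sum of retained and V0 RNA.

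Retention at this place stood high among introns that were listed with a retention event, in the retained or the spliced form. Introns without such an event do not enter this comparison. Over 3870 introns of all genes with both forms together at 1 FPKM or more in each library, the median retention was 3.11% and the third quartile 15.4%. The Fn1 intron removed by V0, at 73.6, 56.6 and 43.7% of the pair of retained and V0 forms, had a mean of 58.0%, and 3481 introns, or 89.9%, had a mean at or below it. Its SD of 14.97 percentage points was reached or passed by 584 of the 3870 introns. These places are descriptions, since introns of 1 library are not independent replicates.

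**Figure D4:**
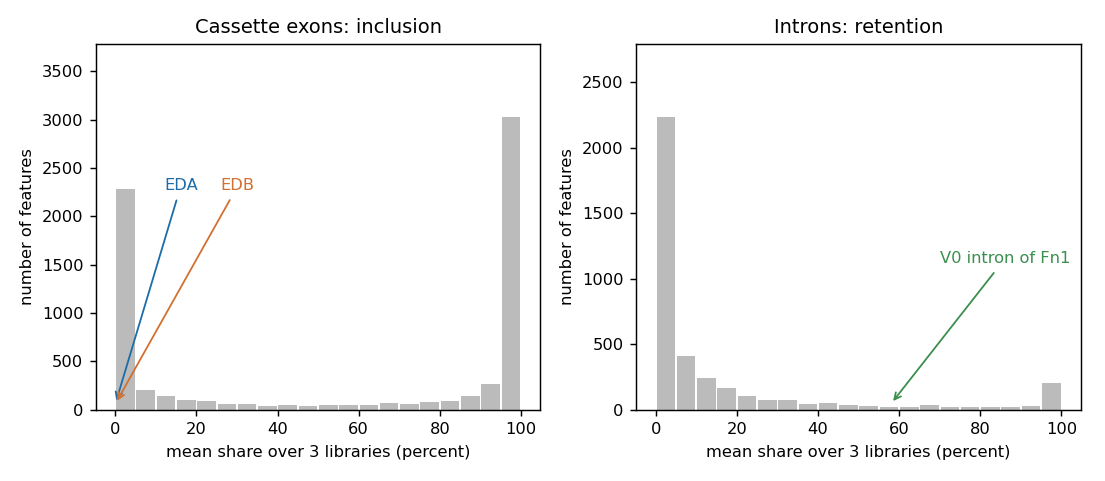
Number of features by mean share over the 3 libraries in bins of 5 percentage points. Inclusion of 6976 cassette exons is on the left. Retention of 3870 introns, those listed in the retained or the spliced form, is on the right. EDA and EDB lie in the lowest bin with 2283 exons, and the Fn1 intron at 58.0% lies in a bin with 23 introns.

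In the tables the value of the retained form was booked with the last exon and not with the first. A single first exon was listed, the annotated one of 341 bases at 71652832 to 71653172, with 41.8, 89.6 and 122 FPKM in replicates 1, 2 and 3. The main last exon, 764 bases at 71585520 to 71586283, used by 8 annotated transcripts, had 157, 199 and 213 FPKM. First exons thus reached 0.266, 0.412 and 0.566 of the summed last exons. The event values added up exactly. The main last exon equalled the sum of the 4 V forms, and the first exon equalled the 3 spliced V forms plus the short transcripts Fn1-207 and Fn1-208, with differences of at most 2.84e-14 FPKM. The value of the retained form is therefore part of the last exon and EDA skipping values, and of neither the first exon nor the EDB skipping value. This is the structure of Fn1-202, the only 1 of the 17 annotated transcripts with the retained exon. The values are sums over transcript models, and whether the RNA that kept the intron lacked the 5′ exons was not tested.

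The models of full-length spliced Fn1 RNA accordingly held 41.7, 89.3 and 120 FPKM in replicates 1, 2 and 3, which is 26.5, 41.0 and 55.9% of the gene level. Most of the rest was booked to the retained form, and in replicate 2 also to the end of Fn1-215. Almost all of the full-length value was for forms that lack EDA, EDB and V, the structure of Fn1-216. The 2 exons after the first were included at the full value of the first exon, and 3 exons further on at 41.7, 89.3 and 120 FPKM, with no skipping of either block listed.

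Unequal first and last exons were seen in other genes too, in both directions. The log2 ratio of first to last exons of Fn1 was -1.91, -1.28 and -0.82 in replicates 1, 2 and 3. Over genes with both ends listed and at least 1 FPKM, which numbered 7164, 7305 and 7355, the median was 0 in each library, the 10th percentile was -0.68, -0.32 and -0.25, and the 90th percentile 2.06, 2.33 and 2.06. Of these genes, 4.98, 4.87 and 5.33% had a ratio at or below that of Fn1 in replicates 1, 2 and 3. Among genes with a coding transcript of at least 5000 bases the 10th percentile was -2.69, -1.60 and -0.97. Of the genes with such a transcript, 14.9, 12.8 and 11.3% had a ratio at or below that of Fn1. The 10th percentiles had the same order over the libraries as Fn1, lowest in replicate 1. The part of this library difference in the share of the retained form was not tested.

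Other last exons were minor except in replicate 2. There, an end at 71604097, which runs 873 bases past the regular exon into the intron before EDA and belongs to the short transcript Fn1-215, had 18.7 FPKM, or 8.57% of all last exons. It had 0.0769 and 0.0737 FPKM in replicates 1 and 3. The end of Fn1-208 at 71642825, which codes for an amino-terminal fragment and runs 135 bases past its regular exon, had 0.0949, 0.117 and 1.52 FPKM, the highest being 0.706% of last exons in replicate 3. The remaining ends, at 71644477 and 71600387, stayed between 0.0053 and 0.12 FPKM. Of 9 annotated inner splice sites of last exons 5 were listed, and of 7 of first exons 1 was listed. All 6 unlisted first exon sites are also internal exon sites of other transcripts.

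A few rows under the identifier of Fn1 were on the plus strand and are not counted above. They were a first exon at 71585598 to 71585705 with 2.23 FPKM in replicate 1 and a last exon at 71586109 to 71586217 with 0.357 and 1.91 FPKM in replicates 2 and 3, all opposite the last exon of Fn1. The antisense gene Apol7d overlaps the first exon of Fn1 from 71652837 on, and no event of it was listed. Whether the estimation used strand is not given in the labels or notes, and reads of the overlapping strands cannot be told apart.

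The genes with the most similar levels over the 3 libraries, by mean absolute difference in log2(FPKM + 1), were the lysosomal membrane protein gene Lamp2 (0.044), the cytochrome P450 Cyp2c70 (0.072), heparin cofactor Serpind1 (0.10), the cytochrome P450 Cyp2j5 (0.11) and glutaryl-CoA dehydrogenase Gcdh (0.11). Lamp2 had 168, 216 and 211 FPKM in replicates 1, 2 and 3. All 5 were lowest in replicate 1, as Fn1 was, which largely follows from choosing them by closeness to Fn1 in these same libraries.

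Each listed fibronectin receptor gene was below the gene level of Fn1, which includes the retained form. The models of full-length spliced Fn1 RNA held less, 41.7, 89.3 and 120 FPKM in replicates 1, 2 and 3. Sdc4 was above them in replicates 1 and 2 and Sdc2 in replicate 1, and the other receptors were below them in every library. Of 16 receptor genes 14 had a value, and 10 of the 14 averaged 1 FPKM or more, against 73.3% of all genes with a value. The median log2(FPKM + 1) of the 14 was 1.71, against 2.10 over all genes. The syndecans, heparan sulfate proteoglycans that bind fibronectin beside integrins, led the list, with Sdc4 at 100.7, 108 and 106 FPKM and Sdc2 at 47.3, 56.5 and 54.4 FPKM in replicates 1, 2 and 3. Sdc1, another syndecan and the next highest receptor, varied more, at 19.7, 53.0 and 33.0 FPKM, and was lowest in replicate 1. Itgb1, the beta subunit of the classical fibronectin receptor, was at 29.7, 33.4 and 32.4 FPKM, and its partner Itga5 was at 2.44, 4.19 and 3.13 FPKM. Itga4, the subunit that binds in the first V piece, had 0.56, 2.58 and 0.856 FPKM and was highest in replicate 2. Itga9, Itga2b, Itgb3 and Itgb7 had means between 0.655 and 0.927 FPKM, and Itgb6 and Itgb8 were not listed.

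Among the 18 matrix partners, 17 were listed, and 11 of the 17 averaged 1 FPKM or more, against 73.3% of all genes with a value. The median log2(FPKM + 1) was 1.68, against 2.10 over all genes. The highest were the fibrinogen chains Fgg at 1631 ± 257 FPKM and Fga at 1589 ± 387 FPKM and Fgb at 1003 ± 124 FPKM (SD, n = 3), which form the clot to which plasma fibronectin is crosslinked, followed by vitronectin (Vtn), another adhesive plasma protein, at 737 ± 63.8 FPKM. The crosslinking transglutaminase Tgm2 was at 37.8 ± 6.88 FPKM, while F13a1, the plasma transglutaminase subunit, was not listed. Of the tissue matrix genes the collagen-binding proteoglycan Dcn was highest, at 71.3 ± 8.57 FPKM, and fibrillar collagens were lower, with Col3a1 at 3.41 ± 0.601 FPKM and Col1a1 at 1.46 ± 0.498 FPKM. Fbln1, Fbln2, Fbn1, Tnc, Ltbp1 and Thbs1 each had no value in at least 1 library and at most 1.22 FPKM in any. The remaining matrix genes of the list, Sparc, Col1a2 and Postn, had a value in every library, with means of 14.8, 2.11 and 1.99 FPKM. Among 6 genes for enzymes that cleave fibronectin, 5 were listed, with a median of 1.11, also below the 2.10 of all genes. Of the 5, 2 averaged 1 FPKM or more, against the 73.3% of all genes. They were plasminogen (Plg) at 616 ± 58.8 FPKM and the membrane metalloproteinase Mmp14 at 15.8 ± 0.985 FPKM. Mmp2, Mmp9 and Plau had means between 0.507 and 0.87 FPKM, and Fap was not listed.

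Splicing regulators reported for the fibronectin exons were mostly well expressed. Among 13 genes 12 were listed, and all 12 averaged 1 FPKM or more, against 73.3% of all genes with a value. Their median was 4.05 on the log2(FPKM + 1) scale, against 2.10 over all genes. The lowest of the 12 was Srsf10, at 1.65, 0.512 and 2.47 FPKM in replicates 1, 2 and 3. The serine- and arginine-rich factor Srsf5 was highest, at 112, 60.9 and 89.6 FPKM in replicates 1, 2 and 3, and was lowest in replicate 2. Srsf6 followed at 32.3 ± 6.22 FPKM and Hnrnpa1 at 23.7 ± 3.88 FPKM (SD, n = 3). Srsf1, a factor known to favour EDA inclusion, was at 9.98 ± 1.09 FPKM, Rbfox2, a factor that binds near many cassette exons, at 5.26 ± 0.837 FPKM, and the epithelial factor Esrp2 at 19.1 ± 2.41 FPKM, while Esrp1 was not listed. With EDA and EDB at the same end of their range in all 3 libraries, no relation between these levels and inclusion could be measured.

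**Figure D5:**
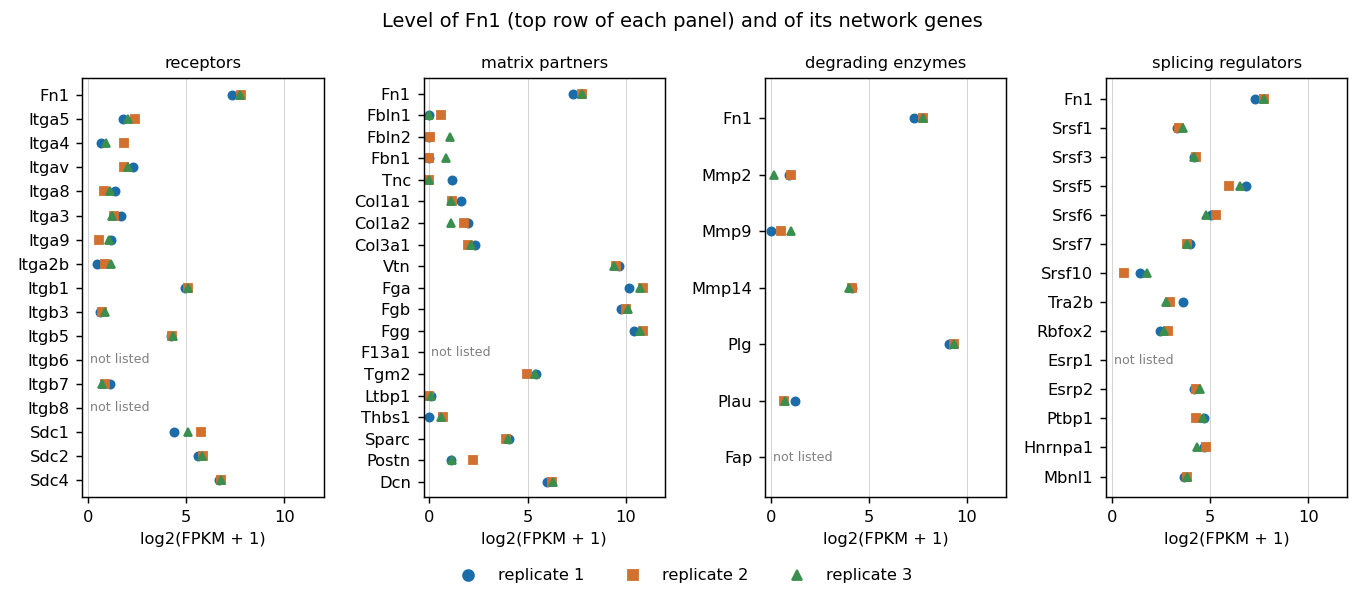
Level as log2(FPKM + 1) in replicates 1 (circles), 2 (squares) and 3 (triangles) of receptors, matrix partners, degrading enzymes and splicing regulators, with Fn1 on top of each panel and points at 0 for libraries without a value. Fibrinogen chains, Vtn and Plg lie above the gene level of Fn1, 157 to 218 FPKM, which includes the retained form. The listed receptors and splicing regulators lie below that gene level.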

How the data were processed

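The 3 RNA sequencing libraries of normal mouse liver, the only group, were described without a contrast or a test. Per the submitters' processing notes, mm9, HISAT2 2.0.1, DESeq2, HTSeq 0.6.1 and cutadapt 1.9.1 were used, with no roles stated. What made the event tables is not given in these sources. Per the file headers, the deposited values are FPKM computed by the authors for each event. First exons matched GENCODE M21 (GRCm38) exactly in 82.0, 82.2 and 82.7% of cases, so positions were read as GRCm38. Repeats of a row, 1440 to 1519 in a library, were dropped.

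Ends were given to genes by splice site, then by identifier with matching strand and position. The assignment and summing of ends were checked on simulated first and last exons. These held no internal events and no unlisted ends, so the check does not cover such cases. A share is the largest event of a form over the sum of the forms. Members, gene lists and rules were chosen with earlier results of these data known. Network genes were named when among the 3 highest of a list, below 1 FPKM or not listed. Other list members were named for their role or level, after their values were seen. The 5 nearest genes were taken from outside the lists. Alternatives were lower limits, other sums, merged ends and leaving out each library. Python 3.11.15, pandas 2.3.3 and numpy 2.4.6 were used.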

Additional observations from a re-analysis of the deposited data

How the results depend on the processing

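In 76 of 98 alternative values over 15 results, the value moved by no more than the SD between libraries. Leaving out 1 of 3 libraries cannot move a mean over libraries by more than that SD. The count is therefore partly fixed in advance and is no measure of stability. The leave-one-out values that moved, 6 in all, were the percentages of cassette exons at or below EDA or EDB. The gene level was 84.3 FPKM from first exons alone, because this sum does not hold the value of the retained form. Among the 3 spliced V forms alone, a setting chosen after seeing the data, the mean share of V0 was 97.7% and that of V120 0.129%. With the plus-strand rows kept, the main first exon was 98.3% of first exons. List medians in log2 units were 1.28 for receptors, 3.05 for matrix partners and 0.72 for degrading enzymes from first exons alone, 1.24, 1.17, 0.33 and 3.96 (the last for splicing regulators) with a pseudocount of 0.1, and 3.25, 5.26 and 6.67 over members that averaged 1 FPKM or more. The share of cassette exons at or below EDA was 26.6 to 27.2% without 1 library and 25.6% with no FPKM minimum, also chosen after seeing the data; for EDB these were 26.6 to 27.2% and 25.5%. Leaving out replicate 2 removes the listed EDA inclusion, lowers the mean V95 share of the 4 forms to 0.0328%, against 0.971% with it, and raises the main last exon to 99.5% of last exons, against 96.8%. Without replicate 1 the mean V120 share was 0.00117%, against 0.0345% with it. No paired analysis was possible because there is 1 group. The depth of the libraries is unknown, so values far below 1 FPKM have no counting interval and their precision could not be given.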
